A study of Mus musculus with 12 samples.

Results

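Fthl17 genes encode ferritin heavy chain-like proteins and lie in a cluster on the mouse X chromosome. Every gene whose symbol begins with Fthl17 was taken as a member, which gave 6 of the 20244 genes listed in the knockdown or immunoprecipitation table: Fthl17b, Fthl17c, Fthl17d, Fthl17e, Fthl17f and the annotated pseudogene Fthl17-ps1. Among the families in these tables it was selected on its control and knockdown CPM values, so its levels in control and knockdown embryos are given as a description, with no p-value. The gene-name table holds 9 such symbols, and the other 3 (Fthl17a, Fthl17-ps2 and Fthl17-ps3) are not analysed here for expression.

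Ferritin stores iron inside cells as a shell of heavy and light chains. The heavy chain, encoded by Fth1, oxidises iron, and the light chain, encoded by Ftl1, helps to form the mineral core. The Fthl17 genes are known for expression in early embryos, germ cells and embryonic stem cells, and in the preimplantation embryo they are known to be transcribed mainly from the X chromosome inherited from the father, which only daughters receive. Their transcripts are therefore known to be more abundant in female than in male early embryos.

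RNA was measured in mouse embryos at the 2-cell stage, when transcription of the embryonic genome starts in earnest. In the knockdown experiment, 2 control libraries (genotype label WT) were compared with 2 libraries labelled Eif1ad3_KD. The design text describes CF1 embryos injected at the 1-cell stage with RfxCas13d mRNA alone for the controls, and with RfxCas13d mRNA plus guide RNA for the knockdown; RfxCas13d is an enzyme that cuts RNA. The samples' protocol instead names oocytes, morpholino oligos and Cas13d protein, and the number, sex and pooling of embryos in a library are not stated. In the RNA immunoprecipitation experiment, zygotes received Eif1ad3-6xHis mRNA at 200 ng/uL, and 200 cells per replicate were lysed at the 2-cell stage. RNA was recovered from 2 replicates with beads carrying an anti-His antibody and from 2 with negative control IgG; both groups carry the genotype label Eif1ad3_OE, and the mouse strain of these embryos is not stated. Nothing says that the libraries A and B of a group came from separate collections of embryos, so the spread between them may be technical.

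The libraries held 4678563 to 27902514 assigned reads. The targeted gene, Eif1ad3, was at 839 and 663 CPM (reads scaled to a common library total) in control A and B and at 277 and 377 CPM in knockdown A and B, 43.5% of the control mean. A fixed list of 2-cell genes was present in each knockdown-experiment library, with 8 of the 9 listed genes at 1 CPM or more. Its summed level was 4863 and 4512 CPM in control and 3498 and 3746 CPM in knockdown embryos, so the groups did not overlap. In the same 4 libraries the oocyte list summed to 3395 to 6956 CPM, with overlapping groups, cumulus cell markers (4 of 8 listed) to at most 13.8 CPM, and the sperm gene Prm2 was at 1.10 to 2.04 CPM. In the immunoprecipitation libraries several list sums differed between His and IgG. The 2-cell list was at 1214 and 1186 CPM in His and 721.5 and 239.8 CPM in IgG A and B, and the oocyte list at 8895 and 9121 CPM against 3599 and 4744 CPM. The cumulus list (6 of 8 listed) was at 5.98 and 20.0 CPM in His against 0 in both IgG libraries, and the blastocyst list at 63.0 and 46.1 CPM against 0 and 0.214 CPM. Prm2 was lower in His (1.08 and 7.20 CPM) than in IgG (47.4 and 54.3 CPM). Single genes departed from these sums. Tcstv3 made up most of the 2-cell sum in IgG A (716.6 CPM) and IgG B (207.3 CPM). Its His levels, 396.9 and 423.5 CPM, lay between those values. The other listed 2-cell genes were higher in both His libraries. Among oocyte genes Zp3 went the other way: 327.6 and 208.2 CPM with IgG, 121.7 and 131.4 CPM with His. Zp2 and Zar1 overlapped, and the other listed oocyte genes were higher in His. The part of these marker levels in the Fthl17 values was not tested. In the IgG libraries 64.9% and 63.0% of genes were at 0, against 26.5% and 27.4% in the His libraries.

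The promoter sequences show how alike the members are just upstream of their starts. RefSeq promoter windows (build GRCm38.p6, 250 bases before to 50 bases after the annotated start) matched 7 Fthl17 genes: the 6 listed members and Fthl17a. In the 6 members, the 120 bases that run from 89 bases before the motif TATAAA formed only 3 distinct sequences. They are printed because they group the members by promoter. The first was shared by Fthl17b, Fthl17c and Fthl17-ps1, the next by Fthl17d and Fthl17e, and the last was that of Fthl17f. Capitals mark ATTGG, which is CCAAT read on the other strand, and TATAAA.
Fthl17b (chrX:8963006-8963125, minus strand): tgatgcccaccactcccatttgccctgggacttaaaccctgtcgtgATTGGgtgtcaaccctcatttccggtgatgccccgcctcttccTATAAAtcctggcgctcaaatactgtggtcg
Fthl17d (chrX:8986771-8986890, minus strand): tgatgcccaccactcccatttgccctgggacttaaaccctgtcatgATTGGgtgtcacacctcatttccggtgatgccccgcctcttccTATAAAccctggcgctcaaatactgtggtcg
Fthl17f (chrX:9062880-9062999, plus strand): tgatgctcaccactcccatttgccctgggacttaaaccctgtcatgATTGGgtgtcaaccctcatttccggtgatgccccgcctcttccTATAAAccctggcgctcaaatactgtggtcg

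With positions counted from 1 at the 5′ end of the stretch, Fthl17d differed from Fthl17b at 4 positions (G44A, A58C, C59A and T96C, the Fthl17b base first). Fthl17f differed from Fthl17b at 3 positions (C7T, G44A and T96C, the Fthl17b base first), an identity of 97.5%. Fthl17f differed from Fthl17d at 3 positions (C7T, C58A and A59C, the Fthl17d base first). None of these changes fell in the capitalised motifs.

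Of 4 motifs searched on both strands, TATAAA occurred in 6 of the 7 Fthl17 windows, against 13.6% of all 32851 windows. CCAAT also occurred in 6 of the 7, against 37.4% of all windows. Fthl17b, Fthl17c and Fthl17-ps1 each held 3 copies of CCAAT, and 3.37% of all windows held at least 3. Fthl17d, Fthl17e and Fthl17f held 2 copies, and 11.7% of all windows held at least 2; in Fthl17d and Fthl17f a further copy at the spacing given next would lie outside the window. Neighbouring copies started 71 bases apart in all 6 members, and the last copy started 43 bases before TATAAA in all 6. TATAAA itself lay at different positions relative to the annotated start: at base -61 in Fthl17b and Fthl17c, -129 in Fthl17d, -54 in Fthl17e, -31 in Fthl17-ps1 and -121 in Fthl17f. GGGCGG occurred in 1 of the 7 windows (Fthl17f, downstream of the start) and in 35.7% of all windows. GGATTA occurred in 0 of the 7 and in 7.06% of all windows. The Fthl17a window, which lies far from the cluster, held none of the 4 motifs. These matches describe letters in the windows and say nothing of binding.

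**Figure D1:**
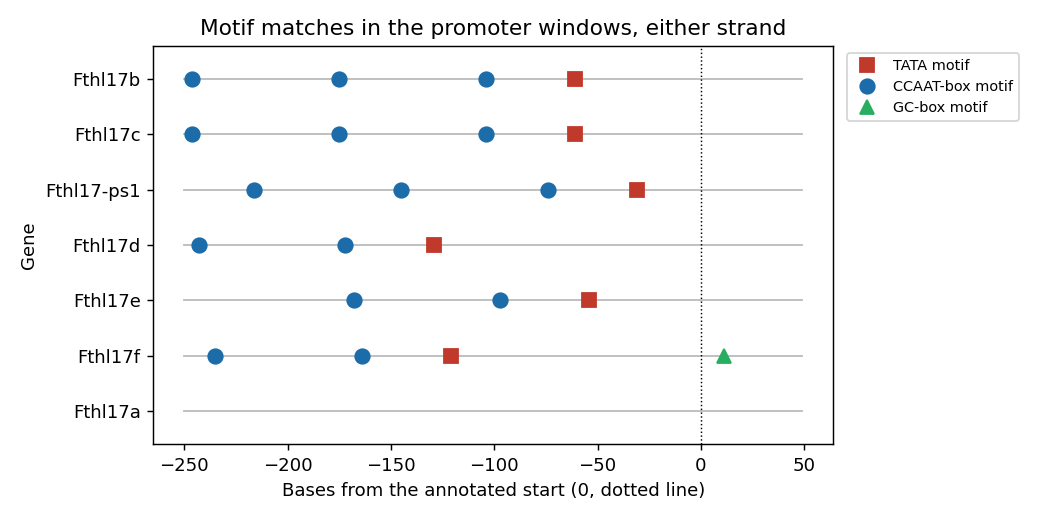
Positions of the motif TATAAA, of CCAAT and of the third motif found, GGGCGG (labelled GC-box), in the 7 RefSeq Fthl17 promoter windows, in bases from the annotated start (x axis), with 1 row per gene. The spacing of CCAAT copies (71 bases) and from the last copy to TATAAA (43 bases) is the same in the 6 members, whereas the distance to the annotated start varies.

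In RefSeq gene order, 8 Fthl17 genes of the cluster lie among 18 annotated genes. The 10 other genes between them were not listed in either table. The nearest listed neighbours were B630019K06Rik, 6 genes before the cluster, and Lancl3, 1 gene after it. Neither reached 1 CPM in a knockdown-experiment library (B630019K06Rik 0 to 0.717 CPM, Lancl3 0 to 0.723 CPM). Fthl17c and Fthl17-ps1 had identical read counts in all 8 libraries, and among 13087 genes at a mean of at least 1 CPM in the knockdown table, 124 shared all 8 counts with another gene. The pair was counted once here, which leaves 5 distinct members. How the authors assigned reads that match several copies is not given in the sources used here, so the split of reads among these similar genes is uncertain. Whether 1 read was counted in more than 1 member was not tested. The sums and shares below treat each read as belonging to 1 distinct member.

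Fthl17f was the most read member in each of the 7 libraries with Fthl17 reads. Control A and B held 105 and 43.0 CPM (2625 and 1071 reads), and knockdown A and B held 14.8 and 9.68 CPM (413 and 176 reads). Both knockdown libraries lay below both controls. The knockdown mean was 12.2 ± 3.62 CPM (SD, n = 2) against 74.0 ± 43.8 CPM (SD, n = 2) in control, 16.5% of the control mean, or a difference of -2.39 in mean log2(CPM + 1). The replicates of a group also differed: control A was 2.44 times control B. Intervals below cover counting error only, since the amplified reads carry no molecular identifiers.

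Fthl17e was at 14.8 and 1.81 CPM in control A and B and at 1.76 and 0.660 CPM in knockdown A and B. Both knockdown libraries again lay below both controls, but the lower control and the higher knockdown library rested on 45 and 49 reads and their 95% exact Poisson intervals overlapped (1.32 to 2.42 and 1.30 to 2.32 CPM). The means were 8.28 ± 9.16 CPM (SD, n = 2) in control and 1.21 ± 0.775 CPM (SD, n = 2) in knockdown embryos, 14.6% of control. The control mean was set largely by control A, which was 8.16 times control B.

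The remaining members had overlapping groups. Fthl17b was at 24.4 and 4.94 CPM in control A and B and at 8.21 and 0.660 CPM in knockdown A and B, a knockdown mean of 30.3% of control. Fthl17c, and with it Fthl17-ps1, was at 8.76, 2.61, 4.66 and 0.110 CPM in the same libraries, 42.0% of control. Fthl17d was at 5.12, 0.803, 4.77 and 0.110 CPM, 82.4% of control. In each of these genes knockdown A lay above control B, and knockdown B, with 2 to 12 reads a gene, lay lowest. For Fthl17d, knockdown A (95% exact Poisson interval 3.99 to 5.65 CPM) and control A (4.27 to 6.09 CPM) did not differ beyond counting error.

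**Figure D2:**
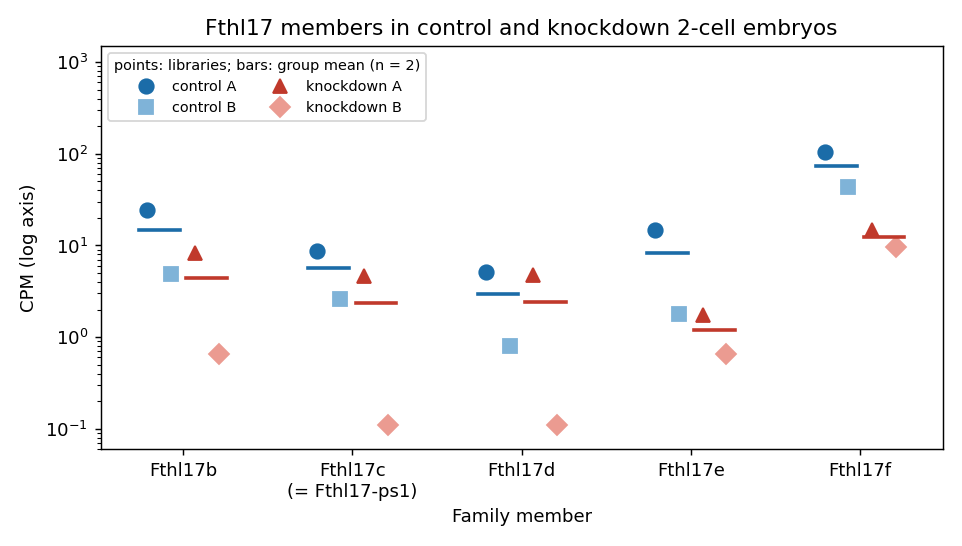
CPM of each distinct Fthl17 member (log scale, y axis) in control A and B and knockdown A and B; each point is 1 library. Fthl17f and Fthl17e have both knockdown libraries below both controls, whereas in Fthl17b, Fthl17c and Fthl17d knockdown A lies above control B.

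Of the 5 distinct members, 4 had a knockdown mean under 50% of the control mean, against 5.78% of the 13332 genes tested. In 2 of the 5, both knockdown libraries lay below both controls, against 18.4% of those genes. The members were proposed from this contrast, so nothing is read from either count. The count under 50% depended on single libraries: it was 1 (Fthl17f) without control A, 2 (Fthl17e and Fthl17f) without knockdown B, and 5 without control B or without knockdown A. Fthl17f was between 11.7% and 28.5% of control whichever library was left out, whereas Fthl17b ranged from 4.51% to 89.8%, Fthl17c from 1.94% to 91.3%, Fthl17d from 3.72% to 303.5% and Fthl17e from 7.97% to 66.9%, each highest without control A. Across all genes, limma called 0% of 13332 at an adjusted p under 0.05 (Benjamini-Hochberg), with 726 at an unadjusted p under 0.05. The count tests on recovered reads called 0 genes (edgeR, 758 unadjusted) and 15 genes (DESeq2).

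Summed over the distinct members, the family was at 158 and 53.2 CPM in control A and B and at 34.2 and 11.2 CPM in knockdown A and B. The groups did not overlap, and the knockdown mean (22.7 ± 16.2 CPM, SD, n = 2) was 21.5% of the control mean (106 ± 74.1 CPM, SD, n = 2). Without Fthl17f the sum was 53.0, 10.2, 19.4 and 1.54 CPM in the same libraries, and the groups overlapped. In bulk libraries such as these, fewer embryos or cells that express a gene and less RNA per cell cannot be told apart.

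The replicates of a group differed widely for this family. Control A exceeded control B by 1.55 in log2(CPM + 1) of the family sum, and knockdown A exceeded knockdown B by 1.53. A gap over 1 between replicates was seen in 11.5% of all genes tested in the controls and in 33.0% in the knockdown libraries. Fthl17f had a gap of 1.27 in the controls and 0.56 in the knockdown libraries, the smallest of the 5 distinct members in both groups.

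Sex-linked genes were set beside the family because the cluster is X-linked. Xist, the X-linked RNA that silences an X chromosome in females, was at 2.40 and 0.20 CPM in control A and B and at 0.47 and 0 CPM in knockdown A and B (60, 5, 13 and 0 reads). Fthl17b, Fthl17c, Fthl17d and the sum without Fthl17f had this same order of libraries: control A, knockdown A, control B, knockdown B. The order was found in 4.05% of the 13332 genes tested. The family was selected on values from these libraries, so nothing is read from a shared order. The 4 Y-linked genes Ddx3y, Eif2s3y, Kdm5d and Uty, which male embryos alone carry, summed to 44.0, 122, 58.5 and 325 CPM in control A, control B, knockdown A and knockdown B. This sum, and Eif2s3y, Kdm5d and Uty singly, had exactly the reverse order, found in 4.60% of genes. Ddx3y, at 0 to 12.2 CPM, did not.

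Fthl17e, Fthl17f and the family sum had another order, with both controls above both knockdown libraries (control A, control B, knockdown A, knockdown B), found in 5.48% of genes. The shares of genes with these orders were similar (4.05%, 4.60% and 5.48%), so no order stood out. The number of male and female embryos in a library is not given, and the part of embryo sex in the Fthl17 values was not tested.

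**Figure D3:**
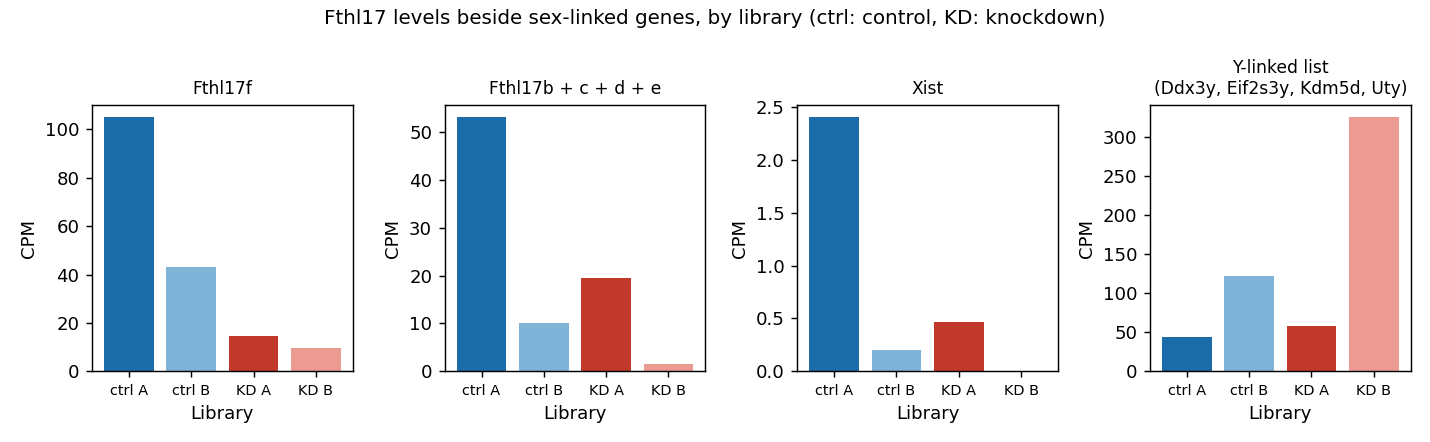
CPM (y axes, linear from 0) of Fthl17f, of the 4 other distinct members summed, of Xist and of the 4 Y-linked genes summed, in control (ctrl) A and B and knockdown (KD) A and B; each bar is 1 library. The other members and Xist run in the order control A, knockdown A, control B, knockdown B, the Y-linked sum runs in reverse, and Fthl17f is lower in both knockdown libraries (14.8 and 9.68 CPM) than in both controls.

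The makeup of the family's reads also varied between libraries. Fthl17f took 66.5% of 3950 family reads in control A (95% Wilson interval 65.0 to 67.9) and 80.9% of 1324 in control B (78.7 to 82.9). It took 43.3% of 954 in knockdown A (40.2 to 46.5) and 86.3% of 204 in knockdown B (80.9 to 90.3). The knockdown libraries thus held both the lowest and the highest of the 4 shares, so the share did not separate the groups. Fthl17d took 13.9% of the family's reads in knockdown A, against 3.24% and 1.51% in control A and B and 0.980% in knockdown B. These are shares of reads, not corrected for gene length.

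**Figure D4:**
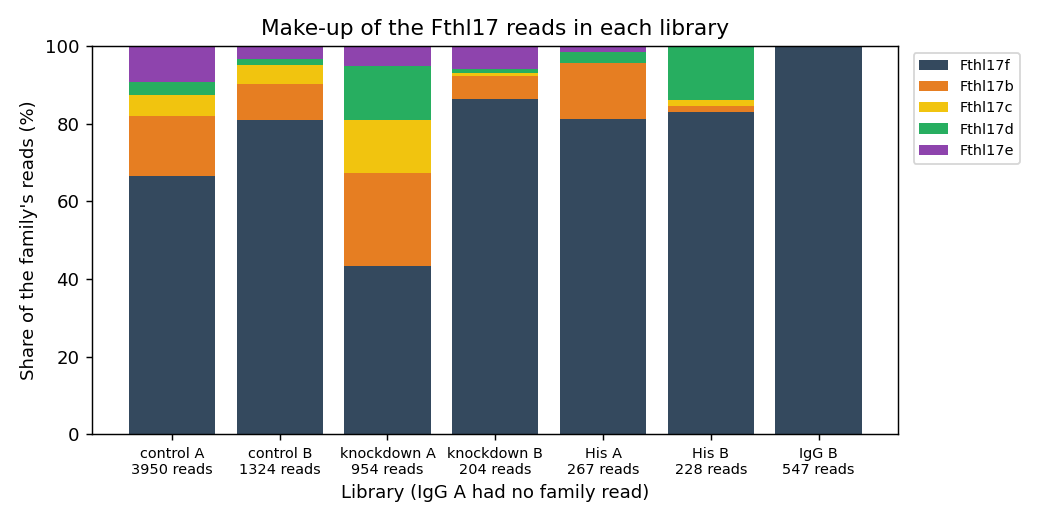
Share of each library's Fthl17 reads (percent, y axis) taken by each distinct member, as 1 stacked bar per library, with the library's number of family reads. Fthl17f takes the largest share in each library shown, from 43.3% in knockdown A to 100% in IgG B.

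In the immunoprecipitation experiment, Fthl17f was the only member with enough reads for a test. His A and B held 25.9 and 23.9 CPM (217 and 189 reads), IgG A held 0, and IgG B held 117 CPM (547 reads). The His replicates lay between the IgG replicates. The mean was 24.9 ± 1.47 CPM (SD, n = 2) in His and 58.5 ± 82.7 CPM (SD, n = 2) in IgG libraries. On the log2(CPM + 1) scale the difference was 1.25 (SE 2.74) and was not called by limma (adjusted p = 0.802), whereas the linear means differ in the opposite direction. In the same fit 35.7% of 11232 genes were called higher and 0.917% lower in His, whereas quantile normalization and edgeR called 0 (3963 and 4592 at an unadjusted p under 0.05) and DESeq2 called 4766 higher and 747 lower. The direction for Fthl17f rested on which IgG library was used: the log2 difference was -2.19 without IgG A (limma adjusted p = 0.00394) and 4.69 without IgG B (limma adjusted p = 0.00152), with the lone IgG library assumed to vary like the His group. IgG A and B differed by over 1 log2 in 49.7% of the genes tested.

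The 4 other distinct members had reads in His libraries and none in either IgG library. Fthl17b had 38 and 4 reads in His A and B (4.54 and 0.505 CPM), and Fthl17d had 8 and 32 reads (0.956 and 4.04 CPM). The His replicates thus differed in opposite directions for these genes. Fthl17c had 0 and 3 reads, and Fthl17e had 4 and 0. Against a floor of 3 reads in each IgG library (a mean of 0.574 CPM), the His mean was at least 4.40-fold higher for Fthl17b and at least 4.36-fold higher for Fthl17d. Each bound rested on 1 His library: without His A, Fthl17b (0.505 CPM) lay under the floor, and without His B, Fthl17d (0.956 CPM) was at least 1.67-fold higher. The His means of Fthl17c and Fthl17e lay under that floor. Absence from both IgG libraries was common at such levels: 70.7% of 6214 genes with a His mean above 0 and under 5 CPM had 0 reads in both.

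Fthl17f took 81.3% of 267 family reads in His A (95% Wilson interval 76.2 to 85.5) and 82.9% of 228 in His B (77.5 to 87.2). In IgG B it took all 547, and 0 reads of the other members allow a share of up to 0.548% by the floor of 3 reads (0.697% by the Wilson limit). IgG B therefore held more Fthl17f reads than either His library but no read of any other member.

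**Figure D5:**
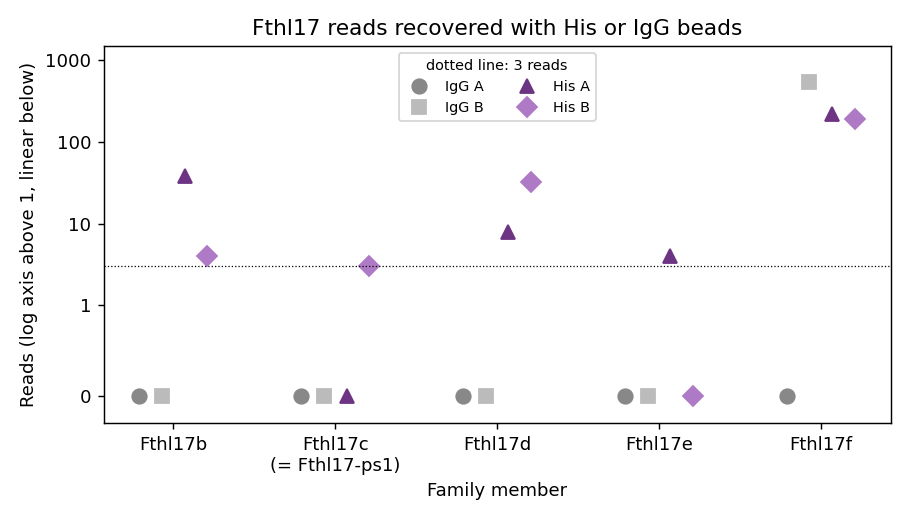
Recovered reads of each distinct Fthl17 member (y axis, log scale above 1 and linear below) in His A and B and IgG A and B; each point is 1 library and the dotted line marks 3 reads. Fthl17f has 217 and 189 reads in His, 0 in IgG A and 547 in IgG B, and the other members have reads in His libraries only.

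Some genes correlated highly with the family sum over the 8 libraries. Among 5321 genes at a mean of at least 10 CPM in each table, genes with a high Pearson's r to the family sum over the 8 libraries, each centred within its table, included Eif1ad8 (r = 0.989), Sap30bp (0.986), Zfp707 (0.974) and Nr5a2 (0.973). Eif1ad8, a relative of the targeted gene, was at 578 and 461 CPM in control and 230 and 120 CPM in knockdown A and B. In IgG A and B it was at 3.38 and 178 CPM. Nr5a2, an orphan nuclear receptor, was at 187 and 111 CPM in control and 80.3 and 67.5 CPM in knockdown A and B. In IgG A and B it was at 0 and 30.8 CPM. Control A and B lay closer together for these genes than for the family sum (158 and 53.2 CPM). Sap30bp, for example, was at 333 and 304 CPM in control A and B. In log2(CPM + 1) of the family sum, A minus B was -6.88 in IgG against 1.55 in control and 1.53 in knockdown, so genes chosen by this r are largely those that were low in IgG A and high in IgG B. The likeness is a description, given with no p-value, over libraries that form 4 groups of 2.

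The canonical ferritin genes were measured in the same knockdown-experiment libraries. Fth1, the ferritin heavy chain, was at 619 and 649 CPM in control and 568 and 724 CPM in knockdown A and B, a log2 difference of 0.02. Ftl1, the light chain, was at 231 and 136 CPM in control and 198 and 84.8 CPM in knockdown A and B, a log2 difference of -0.45, with overlapping groups. Its order of libraries was that of Fthl17b and Xist (control A, knockdown A, control B, knockdown B). Tfrc, the transferrin receptor that brings iron into cells, was at 479 and 483 CPM in control and 324 and 525 CPM in knockdown A and B. Of a list of 26 ferritin and iron genes, 22 were listed and 19 tested, and limma called 0 in either direction (smallest adjusted p 0.859, tied over 6 genes). Of the 19, 14 had a log2 difference below 0 and 5 above, with a median of -0.31, against 0.02 over all genes tested.

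In His against IgG libraries, 17 iron genes were tested. Limma called 4 higher and 0 lower in His, against 35.7% and 0.917% of all genes tested, and these calls were lost with quantile normalization and with edgeR, which called 0 genes. All 4 had almost no IgG reads and passed the filter on low values only through the His libraries, so a difference was built into their being tested. Slc40a1, the iron exporter ferroportin, was at 1.91 and 3.41 CPM in His A and B, Aco1, an iron-sensing RNA-binding protein, at 72.2 and 24.2 CPM, and the haem-degrading enzyme Hmox1 at 5.74 and 27.9 CPM, each with 0 reads in both IgG libraries. Against the floor of 3 reads in each IgG library, the His mean was at least 4.64-fold higher for Slc40a1, at least 84.1-fold higher for Aco1 and at least 29.3-fold higher for Hmox1. These limits moved with single libraries, to 42.3 without His A and 126 without His B for Aco1, and to 48.7 and 10 for Hmox1. Hamp, the hormone hepcidin that limits iron release, had 37 and 28 reads in His A and B and 1 and 0 in IgG A and B. The median log2 difference was 1.84 over the 17 genes and 2.01 over all genes tested. With genes at 0 in both IgG libraries set at their bound, these medians were 1.51 and 1.74. Fth1 had a log2 difference of 1.12 (adjusted p = 0.0802), Ftl1 one of -0.61 (adjusted p = 0.519) and Tfrc one of -0.64 (adjusted p = 0.677).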

How the data were processed

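Members, lists and tests were chosen with earlier results of these data known. The authors deposited 2 tables of CPM, each normalized on its own; the submitters' processing notes name Trim Galore 0.6.7, FastQC, HISAT2 2.2.1, featureCounts 2.0.1, edgeR and build GRCm39. The annotation, strand setting and handling of multiply matching reads are not given in the sources used here. Smart-seq2 amplification and Nextera XT tagging are named in the labels' protocols. Every CPM value was a whole multiple of 1 read (100% within 0.1 read), so reads and totals were recovered. Of 12 labelled samples, 8 were used; 4 value columns could not be matched to the input and total RNA samples, so 2 planned comparisons (His against input, input against total) were not run.

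Each comparison kept genes that reached 1 CPM in 2 or more of its libraries. Tests used limma 3.58.1 (R 4.3.3) and log2(CPM + 1) values (trend, two-sided, Benjamini-Hochberg, threshold 0.05), after a check on simulated data. That check set the same spread between replicates for all genes, unlike these libraries, and no result rests on it. This scale understates the change of low genes. All 6 members passed the filter in the knockdown table and 1 in His against IgG. No exact permutation test of 2 against 2 libraries can reach 0.05. A floor of 3 reads stood for 0 only in the bounds against IgG, the medians at that bound and the limit on a share. In the tests 0 stayed 0 before 1 was added. edgeR 4.0.16 and DESeq2 1.42.0 on recovered reads, other pseudocounts, filters and scalings, a replicate block and leaving out each library were alternatives. Genes named are the members, the ferritin, iron-import and called iron genes, sex-linked genes, Eif1ad3, the 5 genes most like the family sum (of which 1 is not reported here), and the cluster's nearest listed neighbours, chosen after values were seen. Promoter sequences came from RefSeq by symbol; proteins are not used here.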

Additional observations from a re-analysis of the deposited data

How the results depend on the processing

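In the knockdown contrast the family sum ranged from -2.94 to -1.39 on the log2 scale over the alternatives, and Fthl17f from -3.03 to -1.76. Their groups do not overlap, so leaving out a library could not reverse them, and the replicate block and the filter cannot move a member's difference. Fthl17d reversed to 0.49 without control A and 0.80 without knockdown B, and leaving out single libraries gave -1.58 to 0.80. Genes called over the whole table numbered 0 with limma, 2 with a replicate block, 15 with DESeq2 and 0 to 1894 when single libraries were left out (1894 without knockdown A, 414 without knockdown B, a lone library being assumed to vary like the control group). Leaving out single libraries, chosen after seeing the data, moved the members under 50% of control between 1 and 5 and those below every control between 2 and 5; counting both genes of the identical pair and taking the sum without Fthl17f were alternatives also added then.

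In His against IgG the family sum (1.53) became -0.50 with quantile normalization and -1.91 to 4.97 when single libraries were left out. Fthl17f became -1.13 with edgeR, -1.33 with DESeq2 and -0.38 with quantile normalization, and ranged from -2.19 to 4.69 when single libraries were left out. Genes called, 4111 with limma, were 0 with quantile normalization (3963 at an unadjusted p under 0.05), 0 with edgeR (4592 unadjusted), 5513 with DESeq2 (4766 higher and 747 lower, against 4008 and 103 with limma) and 6 to 7679 when single libraries were left out. The cause was not tested in any of these.

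Same-letter libraries deviated together weakly in the knockdown table (correlation 0.15 across genes) and not in the other (-0.01), and the labels say nothing of what a letter shares, so the replicate block was kept as an alternative. edgeR and DESeq2 gave no value for the family sum. Depth limits Fthl17c and Fthl17d in knockdown B (2 reads each) and every member but Fthl17f in the immunoprecipitation libraries.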
